A study of Mus musculus with 6 samples.

Results

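Dendritic cells grown with the cytokine GM-CSF were compared with the progenitors they came from. The comparison uses 4 of the 6 arrays of the study. The 2 GM-MPP arrays hold RNA of multipotent progenitors, cells from C57BL/6 mouse bone marrow that were expanded in stem cell cytokines together with GM-CSF. The 2 GM-DC arrays hold RNA of C57BL/6 dendritic cells that were derived from GM-MPP in GM-CSF. GM-CSF was thus present in both groups. The other 2 arrays, GM-TNFa-DC, are dendritic cells from GM-MPP in GM-CSF plus TNFa, and they enter the estimate of the spread and the choice of probe set, with a few of their levels given at the end. The labels give no age, sex or culture time, nor whether arrays of 1 group stem from different cultures or mice. The p-values therefore cover only the spread among these samples, and that spread may be technical.

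Progenitors of the bone marrow divide and build ribosomes, and those on the way to neutrophils and monocytes fill granules with proteases. Dendritic cells take up material from their surroundings, cut it in lysosomes and show the peptides on MHC molecules to T cells, with help from costimulatory ligands and chemokines. GM-CSF signals through a receptor that shares its beta chain with the receptors for IL-3 and IL-5, and cultures grown in it are known to hold macrophage-like cells beside dendritic cells.

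The values were RMA levels on a log2 scale, on which a difference of 1 is 2-fold. A gene was represented by its brightest probe set, which gave 18193 genes. Array medians lay between 4.67 and 4.77, and precision is limited by having 2 arrays a group. A level near the median is close to background, so folds against it are not exact. The GM-MPP arrays carried Myb, Cd34 and Flt3, defining genes of progenitors, and also the neutrophil granule genes Mpo and S100a8 at up to 13.83. Of 10 measured markers of stem cells and progenitors, 5 fell in GM-DC and 0 rose. From GM-MPP 1 to GM-DC 1 and from GM-MPP 2 to GM-DC 2, 6 of them were lower, 2 higher and 2 opposite. The median of these markers was 7.26 and 7.34 in GM-MPP and 5.84 and 5.44 in GM-DC. The summed level of 12 neutrophil markers was 142 and 150 in GM-MPP and 100 and 87 on the GM-DC arrays. Of 14 markers of conventional dendritic cells 7 rose in GM-DC and 1, Flt3, fell, and their summed level was 81 and 85 against 138 and 118. Xcr1, a defining marker of one subset of these cells, stayed between 3.30 and 3.62 on all 4 arrays. The 14 monocyte and macrophage markers summed to 106 and 120 in GM-MPP and 118 and 126 in GM-DC, and 2 of them rose. Markers at background also add to such sums. The median dendritic cell marker was at 5.13 and 4.87 in GM-MPP, below the medians of all genes, 5.60 and 5.64. In GM-DC it was at 10.33 and 8.92. The median neutrophil marker was at 12.07 and 12.78 in GM-MPP and at 8.33 and 6.18 in GM-DC. For monocyte and macrophage markers it was 7.44 and 8.80 in GM-MPP and 8.84 and 8.74 in GM-DC. The medians of these 2 marker lists were thus above those of all genes on all 4 arrays. In bulk RNA, fewer cells of a type and less RNA per cell cannot be told apart. The part of these other cell types in the changes was not tested.

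With limma and a Benjamini-Hochberg adjusted p under 0.05, 340 genes were higher in GM-DC (1.87% of those tested) and 479 were lower (2.63%). Together these 819 called genes were 4.50% of all genes, and the median of all genes changed by 0.02. All 819 moved the same way on both array numbers, that is, from GM-MPP 1 to GM-DC 1 and from GM-MPP 2 to GM-DC 2. In none of the 819 did the arrays of the groups overlap. The calls were made on these same arrays, so both properties follow largely from the call. The same sign on both numbers was seen in 68.1% of all genes. Arrays did not overlap in 28.3% of all genes with GM-DC higher and in 27.0% with GM-DC lower. At least 2-fold on both numbers was reached by 746 of the 819. Among all genes, 664 were at least 2-fold higher on both numbers (3.65%) and 741 were lower (4.07%). Changes of at least 2-fold in opposite directions occurred in 40 genes (0.220%). Another 1613 genes differed by at least 2-fold on average and did not pass the test. Leaving out 1 array leaves 2 residual degrees of freedom. Most calls ended when a GM-MPP or GM-DC array was left out, while 616 and 606 of the 819 were kept when GM-TNFa-DC 1 or 2 was. Without GM-MPP 1 there were 26 genes higher and 57 lower, without GM-MPP 2 there were 20 and 30, without GM-DC 1 there were 61 and 67, and without GM-DC 2 there were 88 and 73. The 38 genes that were called whichever of these 4 arrays was left out include Mmp12, Ccl17, Itgax, Clec7a, Il7r, Lpl, Dcstamp and Atp6v0d2 on the higher side and Mpo, Elane, Hoxa9, Ada, Cth and Lbr on the lower side.

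**Figure D1:**
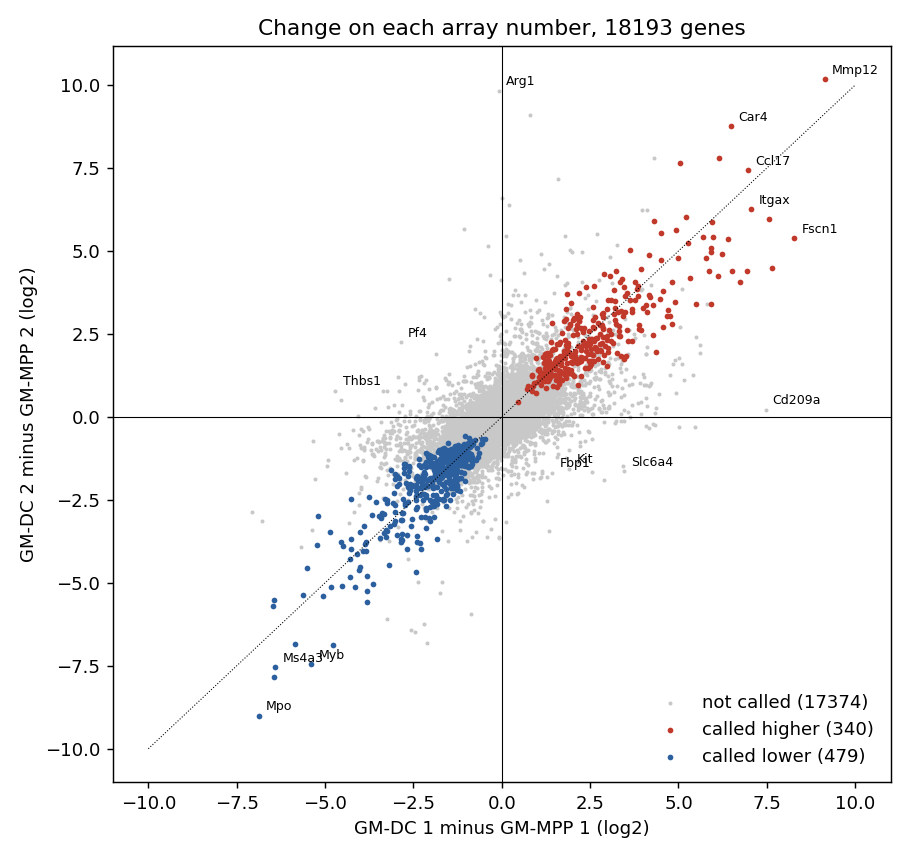
Change of each of 18193 genes from GM-MPP 1 to GM-DC 1 (horizontal axis, log2) and from GM-MPP 2 to GM-DC 2 (vertical axis, log2), with genes called higher in red, genes called lower in blue and the others in grey. The 819 called genes lie at the upper right and lower left, while Pf4, Kit, Fbp1 and Slc6a4 lie at the upper left or lower right.

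Genes were then read by family. The 71 families held 2099 of the genes tested, and 202 of these were called (9.62% against 4.50% of all genes). The lists were chosen with earlier results of these data known, so the higher share cannot be read as an enrichment. Called members were found in 63 families. Each count of called members below is to be set beside the shares of all genes, 1.87% higher and 2.63% lower. In 25 families they were all higher, in 16 all lower and in 22 of both kinds. The 202 became 19 on leaving out GM-MPP 1, 16 on leaving out GM-MPP 2, 47 on leaving out GM-DC 1 and 49 on leaving out GM-DC 2.

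**Figure D2:**
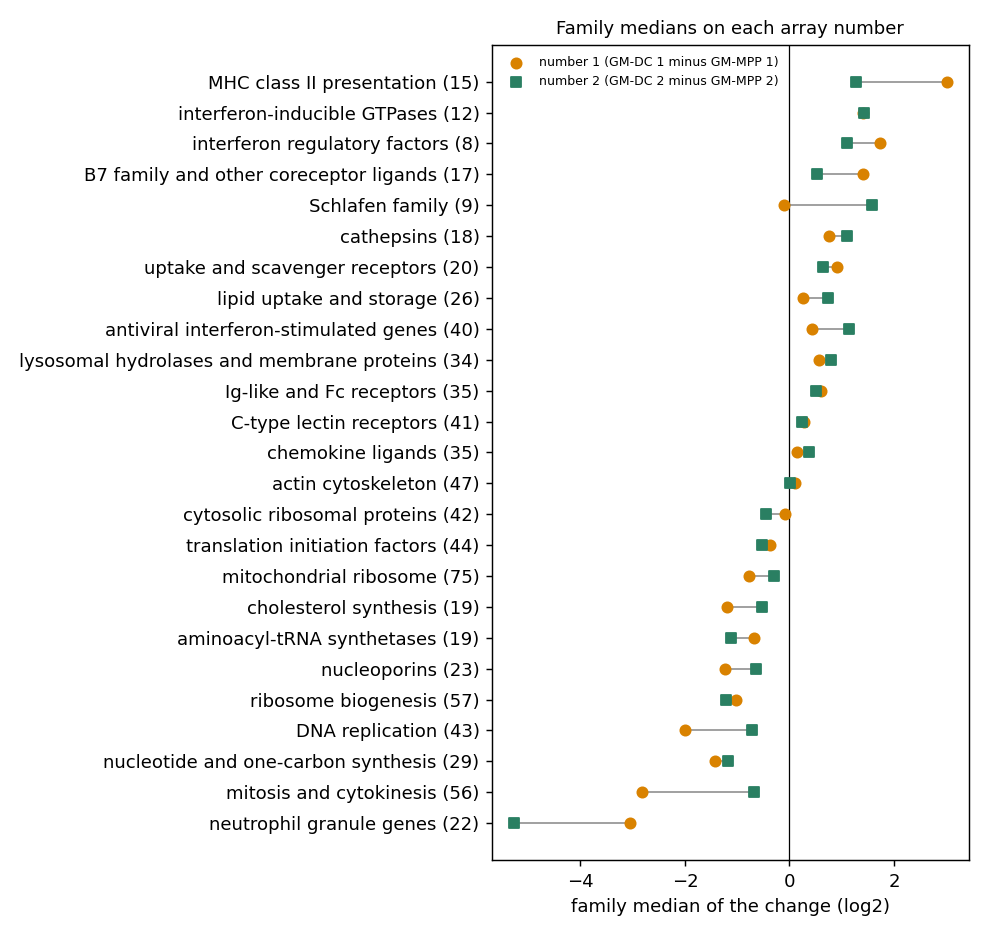
Median log2 change of the genes of 25 families on array number 1 (orange circles) and on number 2 (green squares), with the number of genes measured in parentheses. The circle and the square lie close together for ribosome biogenesis and the interferon-inducible GTPases, and far apart for mitosis and the neutrophil granule genes.

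The interferon-inducible GTPases, large proteins that attack vacuoles with parasites or block viruses, rose in 6 of 12 measured members. All 12 measured members were above 0 on both array numbers, against 35.5% of all genes. In 9 both GM-DC arrays were above both GM-MPP arrays, against 28.3% of all genes. The median change was 1.52, at 1.42 on number 1 and 1.43 on number 2. The promoters of 3 members that rose and of 1 that did not pass are shown because they share a pair of GAAA repeats parted by any 2 bases, the core of the interferon-stimulated response element, to which IRF and STAT factors are known to bind. Each is given for the 250 bases before the RefSeq start of the gene on GRCm38.p6, all on the plus strand, with these letters, or their reverse complement, in capitals.
Gbp2, chr3:142620413-142620662: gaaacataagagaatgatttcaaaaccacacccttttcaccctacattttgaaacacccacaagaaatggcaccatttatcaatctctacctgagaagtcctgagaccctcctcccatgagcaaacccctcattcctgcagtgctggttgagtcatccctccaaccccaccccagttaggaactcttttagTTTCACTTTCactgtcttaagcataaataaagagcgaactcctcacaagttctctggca
Gbp3, chr3:142559794-142560043: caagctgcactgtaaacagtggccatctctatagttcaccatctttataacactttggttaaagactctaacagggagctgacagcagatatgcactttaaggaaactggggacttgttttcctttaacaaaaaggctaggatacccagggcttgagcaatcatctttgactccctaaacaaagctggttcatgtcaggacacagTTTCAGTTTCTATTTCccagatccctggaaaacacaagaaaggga
Gbp7, chr3:142530086-142530335: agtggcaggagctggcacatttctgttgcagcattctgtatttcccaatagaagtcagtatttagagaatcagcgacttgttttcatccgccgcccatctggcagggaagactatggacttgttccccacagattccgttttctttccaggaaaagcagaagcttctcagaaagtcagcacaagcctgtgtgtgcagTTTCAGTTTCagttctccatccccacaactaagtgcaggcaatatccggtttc
Igtp, chr11:58199306-58199555: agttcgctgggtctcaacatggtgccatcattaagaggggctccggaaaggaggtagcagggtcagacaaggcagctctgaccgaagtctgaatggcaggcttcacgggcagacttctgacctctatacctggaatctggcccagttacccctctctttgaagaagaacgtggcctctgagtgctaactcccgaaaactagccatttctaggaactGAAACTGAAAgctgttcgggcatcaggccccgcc
The match began 59 bases before the start in Gbp2, 45 and 39 in Gbp3, where 2 matches overlap in 1 of its 2 windows, 53 in Gbp7 and 34 in Igtp. RefSeq windows of 300 bases, which reach 50 bases past the start, were at hand for 7 of the 12 genes. The letters stood on either strand in 7 of their 8 windows (87.5%), against 3.04% of the 18009 windows of all genes. Among the windows of all called genes the share was 5.59% for those higher and 2.29% for those lower. A match is a description of the letters, and binding was not measured.

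Gbp8 and Gbp2, guanylate-binding proteins, had the largest changes of this family. Gbp8 was at 3.82 and 3.44 in GM-MPP 1 and 2 and at 9.16 and 7.63 in GM-DC 1 and 2, a log2 change of 4.77 ± 0.69 (SE, adjusted p = 0.0269). Gbp2 went from 5.22 and 5.96 in GM-MPP to 9.69 and 9.51 in GM-DC (4.01 ± 0.43, adjusted p = 0.0130), a 16.1-fold rise. Both GTPases were far above their GM-MPP levels on both GM-DC arrays. Mx1 went from 3.95 and 3.62 in GM-MPP to 6.82 and 6.76 in GM-DC (3.01 ± 0.27, adjusted p = 0.00802). Gbp3 (2.07 ± 0.36), Gbp7 (1.81 ± 0.22) and Iigp1, an immunity-related GTPase (1.24 ± 0.15), also rose. Igtp, Irgm1 and Gbp2b carry the same letters in their windows and had changes of 0.22, 0.43 and 0.34, which did not pass. Gbp6 was at 5.23 on the first and 8.33 on the second GM-DC array, against 3.67 and 4.08 in GM-MPP, so that its change rested mostly on number 2. The probe set of Gbp2 is of the kind whose probes can also match related transcripts, and its level is uncertain to that extent.

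Other genes known to respond to interferon had smaller median changes on number 1 than on number 2. The 40 antiviral interferon-stimulated genes had a median of 0.44 on number 1 and 1.14 on number 2. Of these, 10 were at least 2-fold higher on number 1 and 22 on number 2, and 2 rose, the ADP-ribosyltransferase gene Parp14 (1.74 ± 0.20, adjusted p = 0.0157) and Stat2, a subunit of the interferon-activated factor ISGF3 (1.48 ± 0.25, adjusted p = 0.0393). No Schlafen gene of 9 passed in limma (1 higher and 1 lower at an unadjusted p under 0.05), and that family had medians of -0.10 and 1.57 on the 2 numbers. Without GM-DC 2 the Schlafen median was -0.39. Of 8 interferon regulatory factors only Irf4, a factor that dendritic cells of GM-CSF cultures need, rose. Irf4 was at 3.99 and 5.01 in GM-MPP 1 and 2 and at 9.48 and 8.42 in GM-DC 1 and 2 (4.45 ± 0.62, adjusted p = 0.0248). Irf8, a factor of monocyte and dendritic cell development, was at 5.80 and 7.32 in GM-MPP 1 and 2 and at 9.91 and 9.43 in GM-DC 1 and 2 and missed the threshold (adjusted p = 0.0705). Irf7, which amplifies interferon production, was at 4.83 in GM-DC 1, between the levels of the progenitor arrays, and far higher in GM-DC 2 (8.58). Across GTPases, antiviral, Schlafen, STAT, JAK and SOCS genes 8 were called, of which 0 stayed called on leaving out GM-MPP 1, 0 on leaving out GM-MPP 2, 0 on leaving out GM-DC 1 and 1 on leaving out GM-DC 2.

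The MHC class II genes, whose products show peptides from taken-up proteins to CD4 T cells, were higher in GM-DC. Of 15 measured members 14 were above 0 on both array numbers and 5 rose. The median was 2.37, and it was larger on number 1 (3.01) than on number 2 (1.27); in 14 of the 15 genes the number 1 change was the larger. The promoters of H2-Aa and H2-Eb1, the alpha chain of I-A and the beta chain of I-E, are shown because both hold CCAAT, the letters known as the Y box in class II promoters, to which NF-Y binds. H2-Aa lies on the minus strand and H2-Eb1 on the plus strand of GRCm38.p6, each is printed 5′ to 3′ for the 250 bases before its RefSeq start, and CCAAT or its reverse complement is in capitals.
H2-Aa, chr17:34287824-34288073: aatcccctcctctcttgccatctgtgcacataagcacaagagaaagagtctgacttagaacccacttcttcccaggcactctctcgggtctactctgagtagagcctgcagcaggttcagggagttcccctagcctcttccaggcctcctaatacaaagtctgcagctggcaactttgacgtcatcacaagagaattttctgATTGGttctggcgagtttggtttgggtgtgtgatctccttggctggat
H2-Eb1, chr17:34305617-34305866: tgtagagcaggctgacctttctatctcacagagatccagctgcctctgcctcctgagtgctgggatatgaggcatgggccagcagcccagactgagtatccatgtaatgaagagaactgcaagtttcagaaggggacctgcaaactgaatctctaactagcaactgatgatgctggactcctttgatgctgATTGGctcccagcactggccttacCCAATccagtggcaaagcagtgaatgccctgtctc
The match began 48 bases before the start in H2-Aa and 59 and 35 bases before it in H2-Eb1. CCAAT stood in 9 of 12 windows of the class II list (75%), against 37.4% of the windows of all genes. The same letters stood in 69.8% of the windows of the mitosis list, whose median was lower in GM-DC.

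H2-Aa was at 7.19 and 6.76 in GM-MPP 1 and 2 and at 13.60 and 12.12 in GM-DC 1 and 2 (5.89 ± 0.65, adjusted p = 0.0146). H2-Eb1 went from 5.79 and 5.78 in GM-MPP to 12.73 and 10.18 in GM-DC and H2-Ab1, the beta chain of I-A, from 6.43 and 6.29 in GM-MPP to 12.96 and 10.69 in GM-DC. In all 3 chains GM-DC 1 stood above GM-DC 2. Ctss, the protease that trims the invariant chain, had near equal levels on both GM-DC arrays, at 13.57 and 13.68 (2.37 ± 0.26, adjusted p = 0.0140). H2-DMb2, a subunit of the peptide exchange factor, was at 11.61 on the first and 7.91 on the second GM-DC array, and did not pass. Ciita, the master regulator of these genes, was at 3.91 and 3.68 in GM-MPP 1 and 2 and at 6.93 and 4.44 in GM-DC 1 and 2 and did not pass either (adjusted p = 0.360). The factors that assemble on class II promoters, Rfx5, Rfxank and Rfxap, had changes of 0.11, 0.35 and -0.37.

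In MHC class I presentation 2 of 17 genes rose in limma (11.8% against 1.87% of all genes). They were the light chain B2m (1.28 ± 0.23, adjusted p = 0.0457) and H2-M3, which presents formylated bacterial peptides (2.28 ± 0.32, adjusted p = 0.0251). In the B7 family and related ligands, which tune T cell activation, 14 of 17 genes were above 0 on both numbers, against 35.5% of all genes. Of the 17, 2 rose (11.8% against 1.87% of all genes). Cd274, encoding the inhibitory ligand PD-L1, was at 6.46 and 6.50 in GM-MPP 1 and 2 and at 9.52 and 10.74 in GM-DC 1 and 2 (3.65 ± 0.42, adjusted p = 0.0161). Cd80, a costimulatory ligand, had changes of 1.77 on number 1 and 1.76 on number 2. Cd86, another costimulatory ligand, was at 6.52 and 7.47 in GM-MPP 1 and 2 and at 8.95 and 9.11 in GM-DC 1 and 2. Cd40 was at 5.22 and 5.34 in GM-MPP 1 and 2 and at 6.62 and 5.80 in GM-DC 1 and 2. Neither Cd86 nor Cd40 passed in limma (adjusted p = 0.0750 and 0.598). The family median was 1.40 on number 1 and 0.52 on number 2. Across the class II, class I and B7 lists 9 genes were called, of which 0 stayed called on leaving out GM-MPP 1, 1 on leaving out GM-MPP 2, 1 on leaving out GM-DC 1 and 2 on leaving out GM-DC 2.

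**Figure D3:**
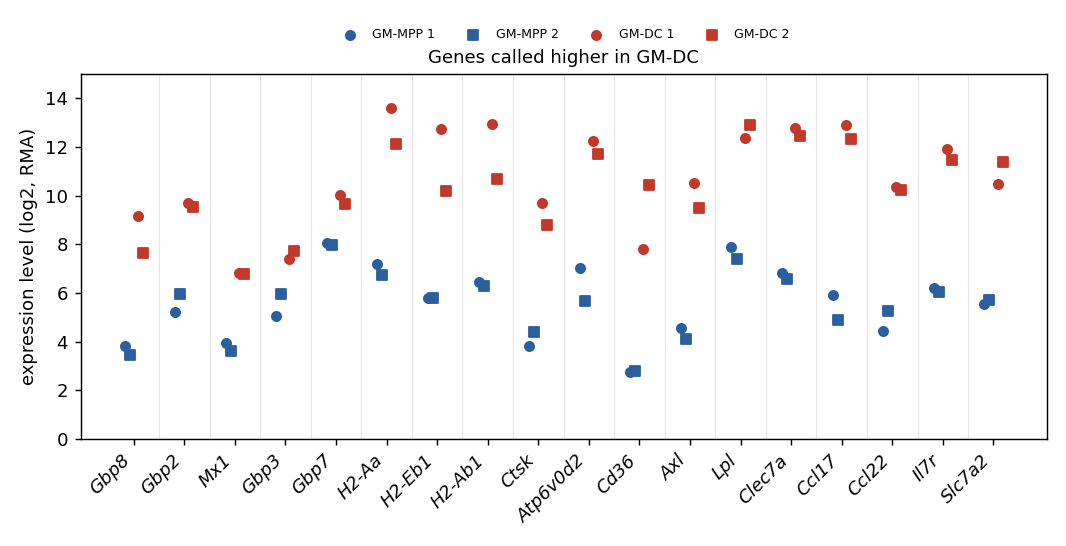
RMA log2 levels of 18 genes called higher in GM-DC, on GM-MPP 1 and 2 (blue circle and square) and GM-DC 1 and 2 (red circle and square). All red points lie above the blue points of the same gene; GM-DC 1 and 2 lie close together for Clec7a and apart for H2-Eb1 and Cd36.

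A part of the lysosomal genes rose, with single proteases and pump subunits far ahead of the rest. Among 18 cathepsins, the proteases of lysosomes and granules, 6 rose (33.3% against 1.87% of all genes) and 1 fell (5.56% against 2.63%). Ctsk, a collagen-cutting cathepsin best known from osteoclasts, was at 3.83 and 4.38 in GM-MPP 1 and 2 and at 9.69 and 8.79 in GM-DC 1 and 2 (5.13 ± 0.43, adjusted p = 0.00643). Ctsh (2.40 ± 0.35), Ctsc (1.52 ± 0.20), Ctso (1.40 ± 0.20) and Ctsa (1.14 ± 0.18) rose less. The 1 that fell was Ctsg, a neutrophil granule protease, which went from 13.12 and 13.24 in GM-MPP to 6.68 and 5.41 in GM-DC. Of 22 subunits of the vacuolar proton pump, which acidifies lysosomes, 2 rose (9.09% against 1.87% of all genes). Atp6v0d2, a subunit of osteoclasts and macrophages, was at 7.03 and 5.68 in GM-MPP 1 and 2 and at 12.25 and 11.71 in GM-DC 1 and 2 (5.62 ± 0.47, adjusted p = 0.00643), and Atp6v1c1 had a change of 1.29 ± 0.17; the median of all 22 was 0.36. Among 34 lysosomal hydrolases and membrane proteins 6 rose and none fell, with a median of 0.62. They include Lipa, the acid lipase (1.84 ± 0.20, adjusted p = 0.0138), Naglu, which degrades heparan sulfate (1.83 ± 0.33), Fuca1, a fucosidase (1.26 ± 0.23), and Npc1, which exports cholesterol (1.48 ± 0.27). Cd68, a glycoprotein of the lysosomal membrane, went from 10.66 and 10.67 in GM-MPP to 12.68 and 12.52 in GM-DC, with nearly equal changes on both numbers. The letters CACGTG, the core of the sites of MiT and Myc factors, stood in 24.3% of 37 windows of these lysosomal genes and in 26.7% of 15 cathepsin windows, against 8.74% of all. Among the windows of all genes called higher the share was 6.18%, and among those called lower 8.4%. Of 14 genes called across these lists 1 stayed called on leaving out GM-MPP 1, 2 on leaving out GM-MPP 2, 3 on leaving out GM-DC 1 and 3 on leaving out GM-DC 2.

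Of 20 receptors that take up particles and lipids 7 rose and none fell. Cd36, a scavenger receptor for oxidised lipids, was at 2.76 and 2.80 in GM-MPP 1 and 2 and at 7.79 and 10.44 in GM-DC 1 and 2 (6.34 ± 1.10, adjusted p = 0.0408), with GM-DC 2 well above GM-DC 1. Axl, a receptor for dying cells, was at 4.54 and 4.09 in GM-MPP 1 and 2 and at 10.51 and 9.51 in GM-DC 1 and 2 (5.69 ± 0.42, adjusted p = 0.00519). Mfge8, which bridges dying cells to integrins, went from 6.63 and 6.59 in GM-MPP to 11.31 and 9.64 in GM-DC. Marco (3.16 ± 0.59), Olr1, a receptor for oxidised LDL (2.96 ± 0.40), and Lrp1, a large endocytic receptor (2.54 ± 0.28), rose as well. Besides Cd36, 5 of 26 genes of lipid uptake and storage rose and none fell. Lpl, lipoprotein lipase, was at 7.88 and 7.39 in GM-MPP 1 and 2 and at 12.38 and 12.92 in GM-DC 1 and 2, a 32.3-fold rise (5.01 ± 0.30, adjusted p = 0.00322). Abca1, the cholesterol exporter, was at 4.57 and 7.28 in GM-MPP 1 and 2 and at 10.67 and 11.53 in GM-DC 1 and 2, with GM-MPP 2 well above GM-MPP 1. Mgll, which splits monoglycerides (3.69 ± 0.55), and Fabp5, a carrier of fatty acids (2.24 ± 0.40), were the other 2 besides Lipa. All 19 genes of cholesterol synthesis, in contrast, were below 0 on both numbers, against 32.6% of all genes, with a median of -0.88 (-1.19 and -0.52). Of them only Fdps, which makes farnesyl pyrophosphate, fell (-3.34 ± 0.34, adjusted p = 0.0125), and 1 of its 2 probe sets was not lower. Of 13 genes called across the uptake, lipid and cholesterol lists 2 stayed called on leaving out GM-MPP 1, 1 on leaving out GM-MPP 2, 3 on leaving out GM-DC 1 and 3 on leaving out GM-DC 2.

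C-type lectin receptors, which bind sugars of microbes and self, gave 5 genes that rose and none that fell among 41, while the family median was 0.34. Clec7a, encoding the beta-glucan receptor Dectin-1, was at 6.82 and 6.56 in GM-MPP 1 and 2 and at 12.77 and 12.43 in GM-DC 1 and 2 (5.91 ± 0.22, adjusted p = 0.00213), and its changes on the 2 numbers, 5.96 on number 1 and 5.87 on number 2, were nearly equal. Clec4n, encoding Dectin-2, went from 9.11 and 9.18 in GM-MPP to 12.97 and 13.12 in GM-DC (3.90 ± 0.20, adjusted p = 0.00219). Mgl2, a galactose-type lectin of dendritic cells, was at 2.59 and 3.77 in GM-MPP 1 and 2 and at 10.25 and 8.27 in GM-DC 1 and 2. Cd302 (3.70 ± 0.30) rose too, and Olr1 belongs here as well as among the uptake receptors. In the Ig-like and Fc receptors 5 of 35 rose and 1 fell. Inhibitory or paired receptors made up those that rose: Cd200r1 (3.64 ± 0.41, adjusted p = 0.0158), Cd200r4 (3.02 ± 0.27), Sirpa (1.64 ± 0.27), Sirpb1a (3.37 ± 0.57) and the inhibitory Fc receptor Fcgr2b (1.59 ± 0.25). Trem3, an activating receptor, fell from 10.53 and 10.87 in GM-MPP to 6.05 and 6.97 in GM-DC. Itgax, encoding CD11c, was the only 1 of 24 integrin genes that rose, and the progenitor and platelet integrins Itga2b (-2.12 ± 0.31) and Itga6 (-1.78 ± 0.22) fell. Cd9, a tetraspanin, rose to near equal levels of 12.60 and 12.52 (2.65 ± 0.16, adjusted p = 0.00368), and Tspan32 of the same family fell (-1.31 ± 0.24). Slamf7 (3.64 ± 0.44), Nrp2 (3.32 ± 0.26) and its partner Plxna1 (2.54 ± 0.25), which serve in semaphorin signalling, rose. Of pattern recognition genes, Tlr3, the receptor for double-stranded RNA, rose (2.50 ± 0.39, adjusted p = 0.0320) with the kinase Irak2 (1.96 ± 0.20), and the adaptor Tirap fell (-1.07 ± 0.18). All 3 called Ms4a genes fell, Ms4a3 (-6.97 ± 0.50), Ms4a4b (-4.34 ± 0.43, with the other of its 2 probe sets not lower) and Ms4a2, the beta chain of the IgE receptor (-2.93 ± 0.35). Of 25 genes called across these surface families 6 stayed called on leaving out GM-MPP 1, 6 on leaving out GM-MPP 2, 7 on leaving out GM-DC 1 and 9 on leaving out GM-DC 2.

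Chemokine ligands had 5 genes that rose and none that fell among 35. The array numbers differed in this family. At least 2-fold higher were 6 genes on number 1 and 15 on number 2, and at least 2-fold lower 2 and 0. The family median was 0.14 on number 1 and 0.37 on number 2. Ccl17 and Ccl22, which both act on the receptor CCR4 of T cells, rose together: Ccl22 was at 4.45 and 5.25 in GM-MPP 1 and 2 and at 10.37 and 10.22 in GM-DC 1 and 2 (5.44 ± 0.53, adjusted p = 0.0114) and Ccl17 at 5.91 and 4.90 in GM-MPP 1 and 2 and at 12.89 and 12.33 in GM-DC 1 and 2, so that the GM-DC arrays stood close together in each. Ccl5 was higher in GM-DC 2 (12.76) than in GM-DC 1 (10.86). Cxcl16 (3.75 ± 0.31, adjusted p = 0.00632) and Ccl6 (2.77 ± 0.50) were the others that rose. Ccr7, the receptor that guides dendritic cells to lymph nodes, was the only 1 of 21 chemokine receptor genes that rose, at 2.85 and 3.44 in GM-MPP 1 and 2 and at 10.41 and 9.41 in GM-DC 1 and 2 (6.76 ± 0.70, adjusted p = 0.0125). No gene of 29 interleukins and other cytokines passed in limma, 9 were higher and 1 lower at an unadjusted p under 0.05, and 15 had GM-DC arrays above both GM-MPP arrays, against 28.3% of all genes. Receptors for cytokines moved both ways, with 5 higher and 3 lower among 48. Il7r was at 6.21 and 6.03 in GM-MPP 1 and 2 and at 11.91 and 11.45 in GM-DC 1 and 2 (5.56 ± 0.27, adjusted p = 0.00219). The beta chains of the GM-CSF receptor family rose, Csf2rb2 (2.94 ± 0.19, adjusted p = 0.00408) more than Csf2rb (1.50 ± 0.23, adjusted p = 0.0301), and the alpha chain Csf2ra was at 9.48 and 9.78 in GM-MPP 1 and 2 and at 11.02 and 10.45 in GM-DC 1 and 2 and did not pass (adjusted p = 0.0912). Csf2rb and Csf2rb2 are close relatives, so their probes may share signal. Il13ra1 (2.08 ± 0.29) and Il10ra (1.92 ± 0.25) rose. The decoy receptor Il1r2 fell from 12.53 and 12.45 in GM-MPP to 9.68 and 8.77 in GM-DC (-3.26 ± 0.33, adjusted p = 0.0123), as did Flt3 (-1.98 ± 0.36) and Il15ra (-1.13 ± 0.19). Among 36 TNF superfamily genes 2 rose (5.56% against 1.87% of all genes). Tnfrsf9, encoding 4-1BB, rose from 4.91 and 5.09 in GM-MPP to 9.23 and 11.00 in GM-DC, and Tnfrsf1b, a receptor for TNF, rose less (1.89 ± 0.34). Of 16 genes called across these lists 3 stayed called on leaving out GM-MPP 1, 2 on leaving out GM-MPP 2, 7 on leaving out GM-DC 1 and 8 on leaving out GM-DC 2.

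The neutrophil granule genes had the lowest family median of all, -4.00, and 10 of 22 fell. The serine proteases and enzymes of primary granules, Mpo, Elane, Prtn3 and Ctsg, all fell. Prtn3, proteinase 3, went from 12.29 and 12.36 in GM-MPP to 5.82 and 6.66 in GM-DC (-6.09 ± 0.40, adjusted p = 0.00408). Elane, neutrophil elastase, was at 11.63 and 12.30 in GM-MPP 1 and 2 and at 5.79 and 5.45 in GM-DC 1 and 2 (-6.35 ± 0.31, adjusted p = 0.00219). Pglyrp1, which binds peptidoglycan, went from 11.08 and 11.55 in GM-MPP to 6.32 and 4.67 in GM-DC (-5.82 ± 0.63, adjusted p = 0.0140). Cd177 (-4.71 ± 0.50), Fcnb (-3.32 ± 0.49) and S100a8 (-2.08 ± 0.33) fell too, as did Itgb2l, although the other 2 of its 3 probe sets were not lower. Genes of later granules differed between the GM-DC arrays in both directions: Ltf, lactoferrin, was at 11.15 and 12.51 in GM-MPP 1 and 2 and at 9.03 and 5.69 in GM-DC 1 and 2, and Ngp at 14.26 and 14.13 in GM-MPP 1 and 2 and at 11.02 and 8.04 in GM-DC 1 and 2, and neither passed (adjusted p = 0.0985 and 0.0705). Ltf and Ngp were lower on GM-DC 2 than on GM-DC 1. Lcn2, lipocalin 2, was the other way round, with 8.93 on the first and 12.62 on the second GM-DC array, and so was Hp, haptoglobin, with 5.80 and 10.05. These late genes were chosen after their values were seen. In 18 of the 22 members the number 2 change was the lower, in 4 the number 1 change, and the family median was -3.05 on number 1 and -5.28 on number 2.

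Of 24 transcription factors of progenitors 4 fell and 1 rose. Myb was at 10.89 and 11.51 in GM-MPP 1 and 2 and at 5.50 and 4.07 in GM-DC 1 and 2 (-6.42 ± 0.52, adjusted p = 0.00616), Gfi1, a repressor in granulocyte development, at 9.19 and 9.51 in GM-MPP 1 and 2 and at 3.68 and 4.95 in GM-DC 1 and 2 (-5.03 ± 0.63, adjusted p = 0.0197), and Myc, a driver of growth genes, at 9.54 and 9.37 in GM-MPP 1 and 2 and at 7.62 and 6.85 in GM-DC 1 and 2 (-2.22 ± 0.31, adjusted p = 0.0247). Nfe2, a factor of platelet formation, fell (-2.83 ± 0.48), and Ikzf2 was the only 1 of 24 that rose (1.64 ± 0.26, adjusted p = 0.0321). Among 13 Hoxa genes and cofactors Hoxa9 (-4.12 ± 0.28), Meis1 (-1.59 ± 0.27) and Hoxa7 (-1.17 ± 0.22) fell. Some factors shared by progenitors and myeloid cells did not pass: Spi1, encoding PU.1, was at 9.92 and 10.03 in GM-MPP 1 and 2 and at 9.86 and 9.36 in GM-DC 1 and 2, and Cebpb at 10.99 and 10.85 in GM-MPP 1 and 2 and at 10.59 and 11.31 in GM-DC 1 and 2. Cebpa was at 9.20 on the first and 6.85 on the second GM-DC array, with 9.02 and 9.26 in GM-MPP, and did not pass. Klf5 fell (-3.60 ± 0.25, adjusted p = 0.00476) while 1 of its 3 probe sets was not lower. Gata2 had a change of -1.01, Id2 of 0.76, Klf4 of 1.66, Batf3 of 2.14, Relb of 2.53 and Zbtb46 of 1.60, with adjusted p from 0.0660 to 0.298. Pparg was at 9.49 in GM-MPP 1 and 6.76 in GM-MPP 2, against 8.95 and 9.06 in GM-DC. Atf3, a stress-induced factor, rose (3.57 ± 0.26, adjusted p = 0.00519), as did the nuclear receptors Esr1 (2.76 ± 0.21, adjusted p = 0.00541) and Rora (2.22 ± 0.28), while Rxrb fell (-1.08 ± 0.20). Nfkbie, an inhibitor of NF-kB, rose (2.26 ± 0.41). Of 18 genes called in the granule, Hoxa and progenitor factor lists 3 stayed called on leaving out GM-MPP 1, 3 on leaving out GM-MPP 2, 11 on leaving out GM-DC 1 and 9 on leaving out GM-DC 2. Of 7 called among the remaining factor families 2 stayed called on leaving out GM-MPP 1, 1 on leaving out GM-MPP 2, 3 on leaving out GM-DC 1 and 4 on leaving out GM-DC 2.

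**Figure D4:**
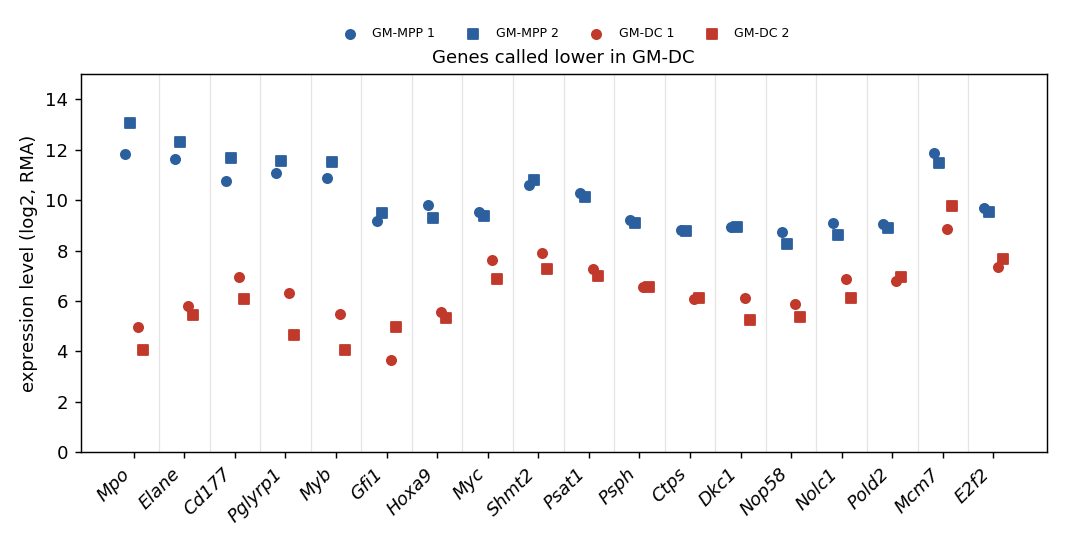
RMA log2 levels of 18 genes called lower in GM-DC, on GM-MPP 1 and 2 (blue circle and square) and GM-DC 1 and 2 (red circle and square). All red points lie below the blue points of the same gene, further for Mpo and Elane than for Pold2 and E2f2.

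Of the 479 genes that fell, 35 were on lists of genes that supply growth and 384 were in no family. In nucleotide and one-carbon synthesis 11 of 29 fell, none rose and 28 were below 0 on both numbers, with a median of -1.51 (-1.43 on number 1 and -1.17 on number 2). The serine branch held the 2 largest falls. Shmt2, which passes a carbon from serine to folate in mitochondria, was at 10.61 and 10.81 in GM-MPP 1 and 2 and at 7.92 and 7.26 in GM-DC 1 and 2 (-3.12 ± 0.43, adjusted p = 0.0245). Psat1 and Psph, the last 2 enzymes of serine synthesis, went from 10.29 and 10.12 in GM-MPP to 7.26 and 6.97 in GM-DC and from 9.22 and 9.10 in GM-MPP to 6.55 and 6.54 in GM-DC, with adjusted p of 0.00519 and 0.00477. Shmt1, the cytosolic form of Shmt2, fell as well (-1.17 ± 0.18). Purine synthesis fell at Prps1, which makes the ribose donor (-2.14 ± 0.22, adjusted p = 0.0120), Ppat (-1.51 ± 0.19), Pfas (-1.63 ± 0.19) and Gart (-1.55 ± 0.25). Pyrimidine synthesis fell at Ctps (-2.70 ± 0.19, adjusted p = 0.00477), Umps (-1.57 ± 0.22) and Dhodh (-1.18 ± 0.20). In Psph and Ctps the 2 arrays of each group lay close together.

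Ribosome biogenesis, the making of ribosomal subunits in the nucleolus, had 16 genes of 57 that fell, none that rose and 53 below 0 on both numbers. The median was -1.15, at -1.03 and -1.21. Members of the small nucleolar particles led. Dkc1, the pseudouridine synthase, was at 8.94 and 8.95 in GM-MPP 1 and 2 and at 6.13 and 5.25 in GM-DC 1 and 2 (-3.26 ± 0.37, adjusted p = 0.0161), and its partner Gar1 fell as well (-2.22 ± 0.32). Nop58 was at 8.72 and 8.27 in GM-MPP 1 and 2 and at 5.90 and 5.38 in GM-DC 1 and 2 (-2.86 ± 0.44, adjusted p = 0.0307) and Nop56, its partner in the methylation particle, at 9.92 and 9.43 in GM-MPP 1 and 2 and at 7.83 and 7.53 in GM-DC 1 and 2 (-1.99 ± 0.25, adjusted p = 0.0201). Polr1a and Polr1b, the large subunits of RNA polymerase I, fell (-1.73 ± 0.27 and -1.27 ± 0.19). CACGTG, the letters that Myc and its partner Max are known to bind, stood in 23.6% of 55 windows of this list against 8.74% of all windows. The share was 8.4% for the windows of all genes called lower and 6.18% for those called higher. Among other lists with lower medians in GM-DC, the share was 33.3% in 12 windows of the aminoacyl-tRNA synthetases. It was 16.1% for nucleotide and one-carbon synthesis and 13.3% for DNA replication. For nucleoporins it was also above the share of all windows. In the windows of the mitochondrial ribosome list it was 8.33%, and in those of the mitosis list 7.55%. A share above that of all windows was thus not particular to ribosome biogenesis. Binding was not measured. Of 19 aminoacyl-tRNA synthetases, which load amino acids on tRNA, Vars (-1.67 ± 0.21, adjusted p = 0.0197) and Kars (-1.10 ± 0.21) fell, and 17 were below 0 on both numbers. Nucleoporins had 22 of 23 below 0 on both and 1 that fell, Nup37 (-1.81 ± 0.25), with medians of -1.23 on number 1 and -0.65 on number 2. Rcc1 and Ranbp1, which set the Ran gradient of nuclear transport, fell (-1.75 ± 0.27 and -1.34 ± 0.18).

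The ribosomal proteins themselves had smaller median changes. None of 42 cytosolic ribosomal protein genes passed in limma (1 higher and 2 lower at an unadjusted p under 0.05), and their median was -0.28, with -0.09 on number 1 and -0.44 on number 2. Of 75 mitochondrial ribosome genes 56 were below 0 on both numbers, 1 fell (1.33% against 2.63% of all genes), Mrps28 (-1.50 ± 0.21), and the median was -0.50. Of 44 initiation factor genes 2 fell (4.55% against 2.63% of all genes). They were Eif2b3 (-1.29 ± 0.19) and Eif2b4 (-1.08 ± 0.19), both subunits of the exchange factor eIF2B. The difference between these families and ribosome biogenesis was not tested. Of 35 genes called across all these growth lists 0 stayed called on leaving out GM-MPP 1, 0 on leaving out GM-MPP 2, 4 on leaving out GM-DC 1 and 3 on leaving out GM-DC 2.

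**Figure D5:**
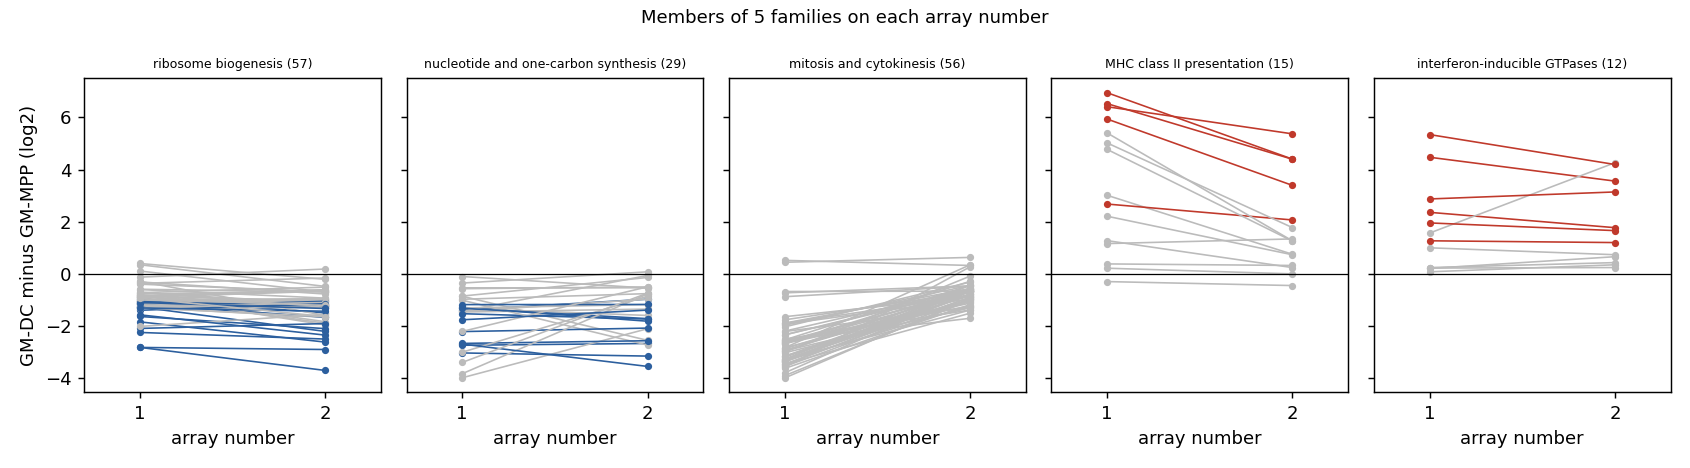
Change of each member of 5 families from GM-MPP to GM-DC on array number 1 and number 2 (log2), 1 line a gene, red where called higher, blue where called lower and grey where not called. Most lines run nearly level for ribosome biogenesis and for the called genes of nucleotide synthesis, climb towards 0 from number 1 to number 2 for mitosis, and mostly drop towards 0 for MHC class II presentation.

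Cell division genes gave another picture on the 2 numbers. All but 4 of the 56 genes of mitosis and cytokinesis were below 0 on both numbers, yet none passed in limma, with 35 lower and none higher at an unadjusted p under 0.05. At least 2-fold lower were 51 on number 1 and 14 on number 2, and the medians were -2.83 and -0.69. Plk1, a mitotic kinase, was at 9.87 and 9.29 in GM-MPP 1 and 2 and at 6.41 and 7.79 in GM-DC 1 and 2, and Bub1, a checkpoint kinase, at 9.27 and 8.47 in GM-MPP 1 and 2 and at 5.69 and 8.74 in GM-DC 1 and 2. In both genes GM-DC 1 was far below GM-DC 2, and in Bub1 GM-DC 2 lay within the range of the GM-MPP arrays. Of 43 DNA replication genes 5 fell in limma (11.6% against 2.63% of all genes). They were Mcm7 and Gins1 of the helicase (-2.36 ± 0.43 and -2.36 ± 0.43), Pold1 and Pold2 of DNA polymerase delta (-1.20 ± 0.21 and -2.09 ± 0.21, adjusted p = 0.0123) and Rfc4 of the clamp loader (-1.81 ± 0.34). The family medians were -2.00 and -0.71. The genes that make deoxynucleotides moved like these: Rrm2, a subunit of ribonucleotide reductase, had changes of -3.82 on number 1 and -0.77 on number 2, and Tk1, thymidine kinase, of -3.39 on number 1 and -0.74 on number 2. Plk1, Bub1, Rrm2 and Tk1 were chosen after their values were seen. On the list of 26 cyclins and inhibitors of cyclin-dependent kinases 2 genes rose and 1 fell, and the median was -0.74. The 2 that rose were the inhibitors Cdkn1a, encoding p21 (2.26 ± 0.34, adjusted p = 0.0288), and Cdkn2b, encoding p15 (1.93 ± 0.27, adjusted p = 0.0245). E2f2, an activator of S phase genes, fell from 9.69 and 9.53 in GM-MPP to 7.35 and 7.66 in GM-DC (-2.10 ± 0.22, adjusted p = 0.0125). Of these 8 called genes 0 stayed called on leaving out GM-MPP 1, 0 on leaving out GM-MPP 2, 0 on leaving out GM-DC 1 and 0 on leaving out GM-DC 2.

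Several metabolic families split into members that rose and members that fell. Among 30 genes of glucose use, the transporter Slc2a1 rose from 9.46 and 9.05 in GM-MPP to 11.28 and 11.99 in GM-DC (2.38 ± 0.37, adjusted p = 0.0315), while its relative Slc2a3 fell from 9.04 and 10.24 in GM-MPP to 6.62 and 5.56 in GM-DC (-3.55 ± 0.60, adjusted p = 0.0382). Aldoc (3.15 ± 0.48) and the hexokinase Hk2 (1.28 ± 0.24) rose, and the lactate transporter Slc16a1 (-2.02 ± 0.22) and Rpia of the pentose phosphate path (-1.75 ± 0.24) fell. In amino acid transport 4 of 38 rose and 1 fell. Slc7a2, which imports arginine, was at 5.54 and 5.73 in GM-MPP 1 and 2 and at 10.48 and 11.37 in GM-DC 1 and 2 (5.29 ± 0.53, adjusted p = 0.0120), a 39.2-fold rise. Slc15a3, a lysosomal peptide and histidine carrier (3.27 ± 0.52), Slc38a6 (2.64 ± 0.36) and Slc36a4 (2.46 ± 0.25) rose, and the glutamine importer Slc1a5 fell (-1.70 ± 0.31). Carbonic anhydrases, which hydrate carbon dioxide, rose at Car4 (7.62 ± 1.08), Car13 (2.61 ± 0.30) and Car9 (1.20 ± 0.17) and fell at Car1 of red cells (-1.74 ± 0.13, adjusted p = 0.00519). Gch1, which starts the synthesis of a cofactor of nitric oxide synthase, rose (1.91 ± 0.32), and Srm, spermidine synthase, fell (-2.26 ± 0.39). Prdx4, a peroxiredoxin, rose (2.53 ± 0.32, adjusted p = 0.0197), and the transferrin receptor Tfrc fell (-2.09 ± 0.39). Cysltr1, a leukotriene receptor, rose (3.23 ± 0.48). Of 79 respiratory chain genes 2 fell, Ndufa4 (-1.98 ± 0.29) and Cox7c (-0.87 ± 0.16), a share of 2.53% that is no higher than the 2.63% of all genes, and the family median was -0.16. Of 25 genes called across the metabolic lists 1 stayed called on leaving out GM-MPP 1, 0 on leaving out GM-MPP 2, 3 on leaving out GM-DC 1 and 3 on leaving out GM-DC 2.

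Genes of cell shape gave 5 that rose and none that fell among 47 actin genes (10.6% higher against 1.87% of all genes). Above 0 on both numbers were 22 members and below 0 were 18, against 35.5% and 32.6% of all genes. Fscn1, fascin, which bundles actin in dendrites, was at 3.56 and 4.19 in GM-MPP 1 and 2 and at 11.84 and 9.59 in GM-DC 1 and 2. Evl (2.98 ± 0.48), Tpm4 (1.58 ± 0.28), Capg (1.57 ± 0.22) and Plek (1.38 ± 0.20) were the others. Rhoc rose from 5.48 and 6.05 in GM-MPP to 8.68 and 8.99 in GM-DC (3.07 ± 0.29, adjusted p = 0.00988) and Rhoq rose too (1.53 ± 0.22). Rab GTPases, which label transport vesicles, had 3 members of 59 that fell (5.08% against 2.63% of all genes). Only 1 rose (1.69% against 1.87%). Rab27a, which serves granule release, fell from 9.60 and 9.78 in GM-MPP to 6.94 and 7.68 in GM-DC (-2.38 ± 0.30, adjusted p = 0.0197), with Rab15 (-2.67 ± 0.44) and Rab38 (-1.30 ± 0.18), and Rab13 rose (1.35 ± 0.20). Of these 12 genes, with the tubulin Tuba1a (1.05 ± 0.19), 0 stayed called on leaving out GM-MPP 1, 0 on leaving out GM-MPP 2, 0 on leaving out GM-DC 1 and 2 on leaving out GM-DC 2.

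Among the remaining families, Mmp12, macrophage elastase, was at 4.23 and 3.50 in GM-MPP 1 and 2 and at 13.38 and 13.67 in GM-DC 1 and 2 (9.66 ± 0.35, adjusted p = 0.00213). It was the only 1 of 65 metalloproteinase and inhibitor genes that passed in limma, a share of 1.54% against 1.87% of all genes higher. The serpin Serpinb6a rose (2.90 ± 0.33, adjusted p = 0.0161) and Serpinb1a, an inhibitor of neutrophil proteases, fell from 12.30 and 12.17 in GM-MPP to 8.92 and 9.27 in GM-DC (-3.14 ± 0.45, adjusted p = 0.0260). Among arginine methyltransferases Prmt2 rose (2.46 ± 0.31, adjusted p = 0.0197), and Prmt1 (-1.73 ± 0.21, adjusted p = 0.0187) and Prmt5 (-1.60 ± 0.28) fell with the deacetylase Hdac2 (-1.15 ± 0.19). The phosphatase genes Dusp16 (1.87 ± 0.28) and Dusp13 (1.24 ± 0.23) rose, and the kinases Map3k6 (-1.79 ± 0.25) and Map3k9 (-1.65 ± 0.30) fell. Rgs1 rose (2.50 ± 0.32) and Rgs19 fell (-1.26 ± 0.22). Of heat shock genes Hspa1b rose (2.01 ± 0.29), and Hspd1 of mitochondria (-1.37 ± 0.23) and Hspa2 (-0.90 ± 0.14) fell. The transporters Abcb1b (-1.53 ± 0.15) and Abce1, which recycles ribosomes (-1.23 ± 0.22), fell, as did Manf of the unfolded protein response (-1.30 ± 0.20). Anxa4 (2.05 ± 0.25) and Lgals3 (0.97 ± 0.14) rose. None of 34 genes of the Bcl2 family and caspases passed in limma (3 higher and 7 lower at an unadjusted p under 0.05), and none of 27 complement and coagulation genes (5 higher and 5 lower). Of 21 genes called across these lists 2 stayed called on leaving out GM-MPP 1, 1 on leaving out GM-MPP 2, 4 on leaving out GM-DC 1 and 2 on leaving out GM-DC 2.

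The 2 array numbers disagreed mainly through the GM-DC arrays. They were at least 2-fold apart in 1329 genes, the GM-MPP arrays in 396, and in 36 of the 40 genes with opposite changes the GM-DC arrays were further apart than the GM-MPP arrays. Pf4, a platelet chemokine, had changes of -2.85 on number 1 and 2.25 on number 2. Kit, the receptor for stem cell factor, had changes of 1.90 on number 1 and -1.57 on number 2. Ly86, which partners RP105 on antigen-presenting cells, had changes of 2.88 on number 1 and -1.89 on number 2, Fbp1, a gluconeogenic enzyme, of 1.43 on number 1 and -1.68 on number 2, and Slc6a4, the serotonin transporter, of 3.45 on number 1 and -1.64 on number 2. Nt5e, encoding the ectonucleotidase CD73, had changes of -1.50 on number 1 and 4.15 on number 2. Itgam, encoding CD11b, was at 8.98 and 10.03 in GM-MPP 1 and 2 and at 6.70 and 11.26 in GM-DC 1 and 2. None of these 7 genes passed, with adjusted p from 0.765 to 0.984.

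At least 16-fold apart on the GM-DC arrays were 37 genes, and on the GM-MPP arrays 2. The examples that follow were chosen after their values were seen. Arg1, arginase, which macrophages switch on, was at 3.11 on the first and 12.78 on the second GM-DC array, against 3.19 and 2.94 in GM-MPP. Acod1, which makes itaconate, was at 4.71 and 11.59, Cd14, the co-receptor for endotoxin, at 7.48 and 12.50, and Thbs1, thrombospondin, at 6.62 and 12.79 on GM-DC 1 and 2. In all 4 genes the second GM-DC array was far above the first. Thbs1 was also high in GM-MPP, at 11.33 and 12.00, and Cd14 was at 8.24 and 9.25 there. Cd209a, the lectin DC-SIGN of dendritic cells, was at 11.37 and 4.33, the other way round. The GM-TNFa-DC arrays of the same numbers stood at 2.93 and 12.60 for Arg1 and at 8.64 and 4.18 for Cd209a. Poly-A controls, spiked into the RNA ahead of labelling, were brighter on number 1 in both groups, with means of 7.57 and 6.45 in GM-MPP and 7.64 and 6.65 in GM-DC. The labels name the numbers only as sample 1 and 2, and the part of the preparation in these differences was not tested.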

How the data were processed

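RNA of 3 groups (GM-MPP, GM-DC, GM-TNFa-DC) was measured on Affymetrix Mouse 430 2.0 arrays, 2 a group. The deposited log2 values were made by the authors with RMA, per the submitters' processing notes; the sources used here do not give its version or the probe definitions. RMA sets all arrays to 1 distribution, which removes any difference in total RNA, and compresses low levels. Probe sets with a single symbol in the platform annotation were kept, and the one with the highest mean over 6 arrays stood for a gene. limma 3.58.1 in R 4.3.3 (lmFit, eBayes with trend) was fitted to 6 arrays in 3 groups leaving 3 residual degrees of freedom. Adjustment was by Benjamini-Hochberg across 18193 genes. The fit was tested on simulated data. Alternatives changed the normalization, probe sets, dim genes, prior, arrays and replicate block. Array numbers do not pair the samples by any label. Promoter windows are RefSeq's.

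The members and gene lists were chosen with earlier results of these data known. Named genes are the 25 largest changes in each direction, up to 5 called genes a family, the 15 with the largest opposite changes and a fixed panel. Outside this rule, and chosen after their values were seen, were Cd34, Xcr1, Cth, Lbr, Igtp, Iigp1, Irgm1, Gbp2b, Gbp6, Irf7, H2-DMb2, Rfx5, Rfxank, Rfxap, Ctso, Ctsa, Lrp1, Fcgr2b, Il10ra, Il15ra, Fcnb, Ltf, Ngp, Lcn2, Hp, Shmt1, Ppat, Pfas, Gart, Umps, Dhodh, Plk1, Bub1, Rrm2, Tk1, Hk2, Arg1, Acod1, Cd14, Thbs1, Flrt3 and Cd209a.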

Additional observations from a re-analysis of the deposited data

How the results depend on the processing

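Of 207 genes named with a call, none changed direction under any alternative run, and between 168 and 205 kept the call under those that left out neither GM-MPP nor GM-DC arrays, except for the replicate block on 4 arrays (88). Most alternatives could not reverse a direction. No called gene had overlapping arrays, so leaving out 1 array could not do so. The replicate block, the prior, a fold limit and the removal of dim genes leave the change of a gene as it was. Only the normalizations and the mean of probe sets could reverse it, and the fit of all probe sets was not compared gene by gene. Against 340 genes higher and 479 lower, testing all probe sets gave 519 and 732. At least 2-fold on both numbers then gave 1233 and 1435 in place of 664 and 741. With the array number as a replicate block the counts were 627 and 849, with 350 called genes in the families in place of 202, and with the block on the 4 arrays compared 151 and 125, with 88 in the families. Deviations of same-numbered arrays correlated at 0.10 between GM-MPP and GM-DC, 0.07 between GM-MPP and GM-TNFa-DC and 0.81 between GM-DC and GM-TNFa-DC. The numbers thus go together in the dendritic cell arrays, and the labels do not say what they mark. The main fit counts these deviations as independent, so its 3 residual degrees of freedom are overstated and its p-values may be too small. With only the 4 arrays compared, 349 genes were higher and 365 lower. Leaving out 1 array gave from 20 to 346 genes higher, from 30 to 371 lower, and from 16 to 191 called in the families; the low ends are without GM-MPP 2. Of 27 families with a median of at least 0.5 in size, 1 changed sign, the Schlafen family without GM-DC 2 (-0.39). Of 48 named genes without a call, 4 passed under at least 1 alternative. With 2 arrays a group and levels near background, small changes of dim genes could not be detected.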

Other observations

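Many called genes belong to none of the families, 233 higher and 384 lower. Among the largest rises, Egr2, an early growth response factor, was at 4.26 and 4.10 in GM-MPP 1 and 2 and at 10.48 and 9.01 in GM-DC 1 and 2 (5.57 ± 0.56, adjusted p = 0.0121). Dcstamp, a membrane protein needed for the fusion of osteoclasts and macrophages, went from 3.41 and 3.70 in GM-MPP to 9.35 and 8.80 in GM-DC (5.52 ± 0.28, adjusted p = 0.00219), with GM-MPP levels below the array medians. Cd83, a marker of mature dendritic cells, went from 4.33 and 3.77 in GM-MPP to 10.10 and 8.57 in GM-DC (5.28 ± 0.93, adjusted p = 0.0420). Also among these rises were Cdh1, encoding E-cadherin (5.26 ± 0.55), Cav1, the coat protein of caveolae (5.41 ± 0.63), and Flrt3 (4.88 ± 0.36). On both GM-DC arrays these 6 genes were well above their GM-MPP levels.

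Among the largest falls, Lipg, endothelial lipase, was at 11.09 and 9.09 in GM-MPP 1 and 2 and at 4.65 and 3.58 in GM-DC 1 and 2 (-5.98 ± 0.69, adjusted p = 0.0164). Retnla, a secreted protein of the resistin family, went from 10.84 and 10.77 in GM-MPP to 5.22 and 5.42 in GM-DC (-5.49 ± 0.29, adjusted p = 0.00235), with nearly equal levels within each group. Ces2g, a carboxylesterase (-5.23 ± 0.21), Far2, which makes fatty alcohols (-4.97 ± 0.33), and Cidea, a lipid droplet protein (-4.56 ± 0.57), fell too. Ada, adenosine deaminase, fell as well (-4.17 ± 0.24, adjusted p = 0.00309). Nkg7, a granule protein of cytotoxic lymphocytes, went from 8.01 and 8.39 in GM-MPP to 3.96 and 3.78 in GM-DC (-4.33 ± 0.20, adjusted p = 0.00219).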
